A study of Arabidopsis thaliana with 13 samples.

Results

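The reciprocal crosses 2xX4x and 4xX2x combine diploid and tetraploid plants in opposite directions, and 4 of the 13 Affymetrix ATH1 arrays of the series (2 per cross) measured their transcripts. In 2xX4x a diploid mother was pollinated by a tetraploid father, and in 4xX2x a tetraploid mother was pollinated by a diploid father. All parents were of accession C24. The mothers carried the A9-barnase transgene, in which the tapetum promoter A9 drives a ribonuclease that stops pollen formation, and the fathers were labelled as unmodified. Siliques were taken 5 days after pollination and pooled from several plants per cross, so RNA of the silique wall, the seed coat, the endosperm and the embryo was measured together. From the ploidy of the parents, the embryo had 3 genomes in both crosses, whereas the endosperm had 2 maternal and 2 paternal genomes in 2xX4x, against 4 maternal and 1 paternal in 4xX2x. The silique wall and seed coat, which are maternal, were diploid in 2xX4x and tetraploid in 4xX2x, so maternal ploidy and parental balance cannot be told apart in this comparison.

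Values from other crosses are given where they place these arrays. The balanced cross 2xX2x was made between diploid C24 parents, with an A9-barnase mother. In 2xX6x, the A9-barnase mother was diploid C24 and the father a hexaploid Col-1 plant. In 6xX2x, the mother was a hexaploid Col-1 plant labelled as unmodified and the father was diploid C24. In fis1X2x, the mother was a homozygous fis1-3 mutant of accession Ler, fis1 being an allele of MEA, and the father was diploid C24. These crosses were also sampled 5 days after pollination. Unfertilised msi1 siliques of accession C24, taken 7 days after flowering, were measured on 1 array. Their label gives a homozygous msi1-2 mutant, whereas the study's methods describe male-sterile F1 plants from a cross of msi1 mutants with A9-barnase plants, so their genotype is given here only as msi1. All crosses with replicates had 2 biological replicates, each 1 array, so that the precision of every value is limited by having so few arrays.

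As background, the endosperm is the nutritive tissue of the seed, formed when the central cell is fertilised, and it normally carries more maternal than paternal genomes. Extra paternal genomes are known to prolong its free-nuclear proliferation and to enlarge the chalazal part that borders the maternal supply tissue. Extra maternal genomes are known to bring cellularization forward and to give small seeds. Several genes of the endosperm are imprinted, which means that one parental allele is preferentially expressed, and type I MADS-box transcription factors are known as regulators of endosperm proliferation.

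Signals are in the unit of the array software, scaled to a trimmed mean of 100 on each array, and their medians were 45.9 and 43.2 in 2xX4x, against 40.4 and 43.4 in 4xX2x. The replicates differed by a root mean square of 0.431 on the log2 scale in 2xX4x and of 0.634 in 4xX2x. Markers of the labelled tissue were present. The seed coat gene BAN, of proanthocyanidin synthesis, read 921 and 1391 in 2xX4x, against 1290 and 1665 in 4xX2x. LHCB4.1, a light-harvesting protein of green tissue, read 3408 and 3346 in 2xX4x and 2981 and 3248 in 4xX2x, and the silique gene ALC, a regulator of pod opening, read 186 and 207 in 2xX4x and 251 and 380 in 4xX2x. The 3 prime to 5 prime ratio of the actin control, a sign of RNA integrity, was 2.19 and 2.74 in 2xX4x, against 1.08 and 0.561 in 4xX2x, whereas that of GAPDH was 0.984 and 0.916, against 0.977 and 0.922. The actin ratio therefore moved with the cross, and its part in the results below was not tested.

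The first question was which transcripts differ when the extra genomes come from the father and not from the mother. Of 15982 probe sets tested, 348 (2.18%) were higher in 2xX4x and 163 (1.02%) were higher in 4xX2x at an adjusted p below 0.05 (limma with Benjamini-Hochberg adjustment). The 2 directions together made 3.2%. Differences are of log2(signal + 7.4), an offset that makes the change of dim genes look smaller than it is. A gene counted as called had passed this threshold. The median fold among called probe sets was 5.07 for those higher in 2xX4x and 4.23 for those higher in 4xX2x, with 43 and 19 probe sets past 16-fold. The 511 calls depended on single arrays, with 194 when 2xX4x replicate 2 was left out, 208 when 2xX4x replicate 1 was and 249 when 4xX2x replicate 1 was. In all 511 the 2 arrays of one cross lay beyond the 2 of the other. The arrays of the crosses also separated, higher in 2xX4x, in 25.1% of all tested probe sets and, higher in 4xX2x, in 22.3%, so separation alone is common. In whole siliques fewer cells of a type and less RNA per cell cannot be told apart.

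Many of the called genes were near background in one cross. On both 4xX2x arrays, 218 of the 348 probe sets higher in 2xX4x lay under the 40th percentile of the array, a signal of 22.2 to 25.1. On both 2xX4x arrays, 60 of the 163 probe sets higher in 4xX2x lay under that percentile, which was 25.8 to 28.7 there. Low signals have no reliable order, and folds against them depend on the offset.

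**Figure D1:**
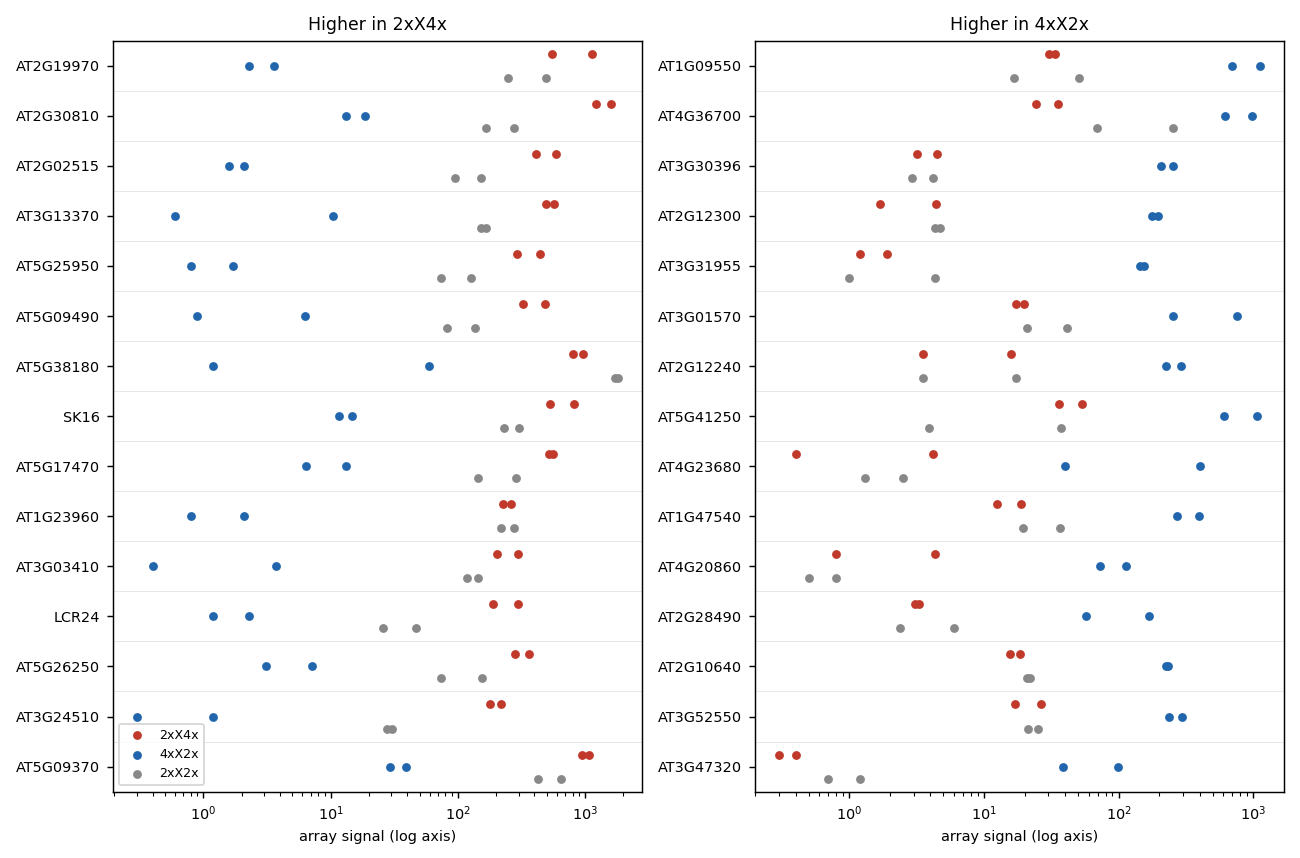
Signal of the 15 named genes with the largest difference in each direction, 1 point per array on a log axis, for 2xX4x (red), 4xX2x (blue) and 2xX2x (grey). In the left panel the blue points stand far below red and grey points, and in the right panel the blue points stand above both.

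The gene with the largest difference toward 2xX4x was AT2G19970, for which the gene tables give no role. Its signal was 552 and 1128 in 2xX4x, against 2.3 and 3.6 in 4xX2x, a 77.2-fold difference (log2 6.27 ± 0.44 SE, adjusted p = 3.32e-05, limma). AT2G30810, of the gibberellin-regulated protein family, read 1582 and 1212 in 2xX4x, against 13.2 and 18.5 in 4xX2x (log2 5.91 ± 0.34, adjusted p = 9.41e-06, limma). The gap between the crosses exceeded the distance between replicates many times in both genes, and the same held for AT2G02515, at 587 and 412 in 2xX4x against 1.6 and 2.1 in 4xX2x. AT3G13370, AT5G25950 and AT5G09490 were 44.9-fold, 42.3-fold and 38.0-fold higher in 2xX4x, and their 4xX2x signals did not pass 10.4.

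LCR24, of the low-molecular-weight cysteine-rich family that resembles defensins, read 297 and 188 in 2xX4x, against 2.3 and 1.2 in 4xX2x (log2 4.74 ± 0.41, adjusted p = 0.000105, limma). The defensin-like gene AT3G24510 read 217 and 178 in 2xX4x and 0.3 and 1.2 in 4xX2x. Both genes were near background in 4xX2x and dim in the balanced cross, where they reached 46.8 and 30.6. AT5G54220 and AT5G40155, further defensin-like genes chosen after their values were seen, were 20.6-fold and 20.7-fold higher in 2xX4x. AT5G40155 was bright, at 1131 and 1504 in 2xX4x, against 43.2 and 71.7 in 4xX2x. The family rule based on gene names found 6 tested defensin-like genes, of which LCR24 was the only called one. The share called higher in 2xX4x was 2.18% over all tested probe sets. LCR69 and PDF2.1, plant defensins on this list, had differences of -0.67 and -0.61 that did not pass.

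The lipid transfer protein gene AT5G09370 read 949 and 1082 in 2xX4x, against 29.3 and 39.5 in 4xX2x (log2 4.62 ± 0.27, adjusted p = 9.41e-06, limma). AT1G73560, annotated to the same class and chosen after its values were seen, was 19.2-fold higher in 2xX4x. AT5G26250, which entered the sugar and amino acid list as a sugar transporter, read 280 and 363 in 2xX4x, against 7.2 and 3.1 in 4xX2x. SWEET8, a sugar efflux carrier also chosen afterwards, read 182 and 234 in 2xX4x, against 20.2 and 13.9 in 4xX2x. Of the 5 tested genes of the supply list only AT5G26250 was called, beside 2.18% of all tested probe sets called higher in 2xX4x. Among the other 4, SWEET11, a sucrose exporter known to feed the embryo, had a difference of -0.49 and SAG29 (SWEET15) of -1.11, and neither passed.

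Among genes of wall modification and protein turnover, EXPA21, an expansin that loosens cell walls, read 193 and 108 in 2xX4x, against 1.7 and 2.0 in 4xX2x (log2 4.04 ± 0.39, adjusted p = 0.000223, limma). EXPA16 was 2.88-fold higher in 2xX4x, and the remaining 13 of 15 tested expansins did not pass. The median expansin differed by -0.12, beside 0.02 over all tested probe sets. SK16, a SKP1-like adaptor of ubiquitin ligases, read 529 and 823 in 2xX4x, against 14.8 and 11.7 in 4xX2x, while its relative SK18 read 103 and 93.5 in 2xX4x and 100.1 and 107 in 4xX2x. In the serine carboxypeptidase-like family, scpl47 was 21.6-fold higher in 2xX4x (390 and 308, against 8.4 and 9.6 in 4xX2x) and scpl42 was 5.16-fold higher, 2 called of 19 tested. Of the 3 tested subtilisin-like proteases found by gene name, SBT4.13 was called, at 216 and 201 in 2xX4x and 72.8 and 43.2 in 4xX2x. The called members of these families thus stood beside many members that did not pass. Of all tested probe sets 2.18% were called higher in 2xX4x. EXPA16 and SBT4.13 were not called once an array of the comparison was left out (any of the 4 for EXPA16, and any but 4xX2x replicate 1 for SBT4.13), with adjusted p from 0.0695 to 0.228 in those fits (limma).

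The genes higher in 4xX2x were led by AT1G09550, for which the gene tables give no role. It read 33.6 and 30.4 in 2xX4x, against 1127 and 694 in 4xX2x, 22.7-fold higher in 4xX2x (log2 -4.50 ± 0.38, adjusted p = 0.000105, limma). A further 5 probe sets without a single annotated gene lay beyond it, up to 134-fold. AT5G41250 read 53.3 and 36.0 in 2xX4x and 610 and 1061 in 4xX2x, and AT1G47540 read 12.6 and 18.9 in 2xX4x and 394 and 270 in 4xX2x. Both genes were dim in 2xX2x as well, where AT5G41250 read 37.5 and 3.9 and AT1G47540 read 19.5 and 36.8. AT4G23680 read 4.2 and 0.4 in 2xX4x, against 403 and 40.1 in 4xX2x, so that its 4xX2x replicates were themselves far apart. Its neighbour AT4G23670, a major latex protein-related gene, was bright in both crosses, at 551 and 361 in 2xX4x and 1448 and 1209 in 4xX2x (log2 -1.55 ± 0.29, adjusted p = 0.0137, limma).

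Leaving out 1 array of a cross ended some of these calls. AT4G23680 was 4.99-fold higher in 4xX2x without 4xX2x replicate 1 (adjusted p = 0.125, limma) and 43.2-fold without 4xX2x replicate 2 (adjusted p = 0.000856), and its call was also lost without either 2xX4x array (0.0933 and 0.175). AT5G41250 was not called without 2xX4x replicate 2 (0.0821) or 4xX2x replicate 2 (0.0610). AT4G23670 was not called without 2xX4x replicate 2 (0.197) or 4xX2x replicate 1 (0.121). Of the 72 called genes named by the rule or chosen afterwards, 45 stayed called without any 1 of the 4 arrays. AT1G09550 and the 15 genes highest in 2xX4x, except AT5G38180, were among them.

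Genes of seed storage and oil bodies formed the group that stood higher in 4xX2x. Storage proteins and the oleosins that coat oil bodies are known products of the maturing embryo and, in part, of the endosperm. Of 25 listed loci 11 had a probe set of their own and 8 were tested, of which 5 were higher in 4xX2x (1.02% of all tested probe sets), none was higher in 2xX4x and 3 did not pass. The median difference of the 8 was -2.81, beside 0.02 over all tested probe sets. AT2G28490, AT3G18570 and PAP85 would not have passed the filter without their 4xX2x arrays. The count and the median are thus partly set by the filter and are a description only. The oleosin gene OLEO3 read 107 and 134 in 2xX4x, against 1311 and 703 in 4xX2x (log2 -2.93 ± 0.44, adjusted p = 0.0035, limma). PAP85, a vicilin-like storage protein, read 9.5 and 0.5 in 2xX4x, against 93.4 and 47.8 in 4xX2x, and was not called without 2xX4x replicate 2 (adjusted p = 0.178, limma) or 4xX2x replicate 1 (0.192). PAP85 and the members AT3G18570 and AT1G07750 were picked for naming after their values were seen.

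The tables give only a locus for the other members, which entered the list as oleosins or cupins, the fold of many storage proteins. AT3G01570, listed as an oleosin, read 19.9 and 17.4 in 2xX4x, against 760 and 254 in 4xX2x (17.2-fold). AT4G36700, listed as a cupin, read 35.3 and 24.4 in 2xX4x, against 978 and 616 in 4xX2x, and AT2G28490 read 3.3 and 3.1, against 167 and 56.8. In the 5 called genes both 4xX2x arrays lay above both 2xX2x arrays as well, as they did in 18.1% of all tested probe sets. These 5 were selected for high 4xX2x signals, which by itself raises such a count, so it is a description only. AT3G18570 had the same direction without passing (log2 -1.66, adjusted p = 0.116, limma), and AT1G07750, bright throughout at 774 and 622 in 2xX4x and 801 and 817 in 4xX2x, did not pass. AT4G36700 was not called without 4xX2x replicate 1 (adjusted p = 0.107, limma), 2xX4x replicate 1 (0.0644) or 2xX4x replicate 2 (0.103), nor was AT2G28490 (0.19, 0.0886 and 0.0919). When 4xX2x replicate 1 was left out the log2 difference of AT3G01570 was -3.33 and that of AT2G28490 was -2.60, and when 4xX2x replicate 2 was left out they were -4.88 and -4.04.

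Markers of embryo and maternal tissue are given beside this group. BBM, a regulator of embryo cell fate and the embryo marker with a probe set of its own, read 3.8 and 1.5 in 2xX4x and 14.5 and 17.2 in 4xX2x, all under the 40th percentile, so it was not tested. The summed signal of 2 silique wall markers, most of it from ALC, was 203 and 223 in 2xX4x and 283 and 402 in 4xX2x. That of 2 seed coat markers was 1935 and 2594 in 2xX4x, against 2047 and 2824 in 4xX2x. None of these 4 markers was called. The summed signal of 2 photosynthetic genes was 6876 and 5782 in 2xX4x, against 6956 and 5286 in 4xX2x. For pollen, the sugar carrier AtVEX1 read 50.7 and 40.3 in 2xX4x and 113 and 73.6 in 4xX2x without passing (adjusted p = 0.261, limma), and the A9 gene itself was at 0.5 to 5.3 on the 4 arrays. The part of unequal tissue shares or developmental stages in the storage group was not tested.

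EEL, a bZIP factor known to act on seed maturation genes, was chosen after its values were seen and read 3.0 and 9.6 in 2xX4x, against 77.2 and 51.2 in 4xX2x. Its call (adjusted p = 0.0257, limma) was lost without any 1 of the 4 arrays (0.0686 to 0.243). Proteases were found on both sides. SBTI1.1, a subtilase that the name rule had missed and that was chosen afterwards like AT4G04460, read 27.2 and 45.9 in 2xX4x, against 373 and 338 in 4xX2x (log2 -3.08 ± 0.37, adjusted p = 0.000731, limma). The aspartyl protease gene AT4G04460 read 120 and 220 in 2xX4x, against 1305 and 1227 in 4xX2x, although its call (adjusted p = 0.0167, limma) was also lost without any 1 of the 4 arrays (0.0592 to 0.178).

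Type I MADS-box genes stood on the other side. Of 25 listed genes 17 had a probe set of their own and 11 were tested, of which 4 were higher in 2xX4x (2.18% of all tested probe sets), none was higher in 4xX2x and 7 did not pass. The median difference was 1.16, and 10 of the 11 differences were positive, beside 51.6% of all. Several members, AT4G36590 among them, had been named by the study from these samples, so the direction of the list is not independent evidence. AT4G36590 (AGL40) read 251 and 117 in 2xX4x, against 1.0 and 7.7 in 4xX2x (log2 3.99 ± 0.64, adjusted p = 0.00545, limma). AT5G26630 (AGL35) read 30.8 and 50.5 in 2xX4x and 1.9 and 2.7 in 4xX2x, and AGL91 read 47.4 and 61.2, against 0.7 and 1.8. AGL87 read 213 and 185 in 2xX4x and 79.7 and 44.8 in 4xX2x.

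In the balanced cross the 4 called MADS-box genes did not stand in the same place. AT5G26630 read 7.4 and 2.7 there, close to 4xX2x, whereas AGL87 read 221 and 193, close to 2xX4x. AGL91 read 85.7 and 24.2 in 2xX2x, which spans its 2xX4x signals. AGL62, a gene known to hold back endosperm cellularization, read 16.4 and 7.5 in 2xX4x and 3.2 and 10.7 in 4xX2x, and did not pass. AGL80 was the member with a negative difference (-0.72), and it and AGL62 were picked for naming after their values were seen. AGL33, a MADS-box gene outside the list and chosen after its values were seen, read 96.1 and 105 in 2xX4x, against 0.5 and 6.9 in 4xX2x, and stayed called without any 1 of the 4 arrays.

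The 4 calls of the list depended on single arrays. AGL91 was not called without any 1 of them (adjusted p from 0.0750 to 0.212, limma). AGL87 stayed called only without 4xX2x replicate 1 (0.0325, otherwise 0.133 to 0.197). AT5G26630 was not called without 2xX4x replicate 2 (0.172) or 4xX2x replicate 1 (0.0897), and AT4G36590 was not called without 2xX4x replicate 1 (0.0791) or 4xX2x replicate 1 (0.0674).

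**Figure D2:**
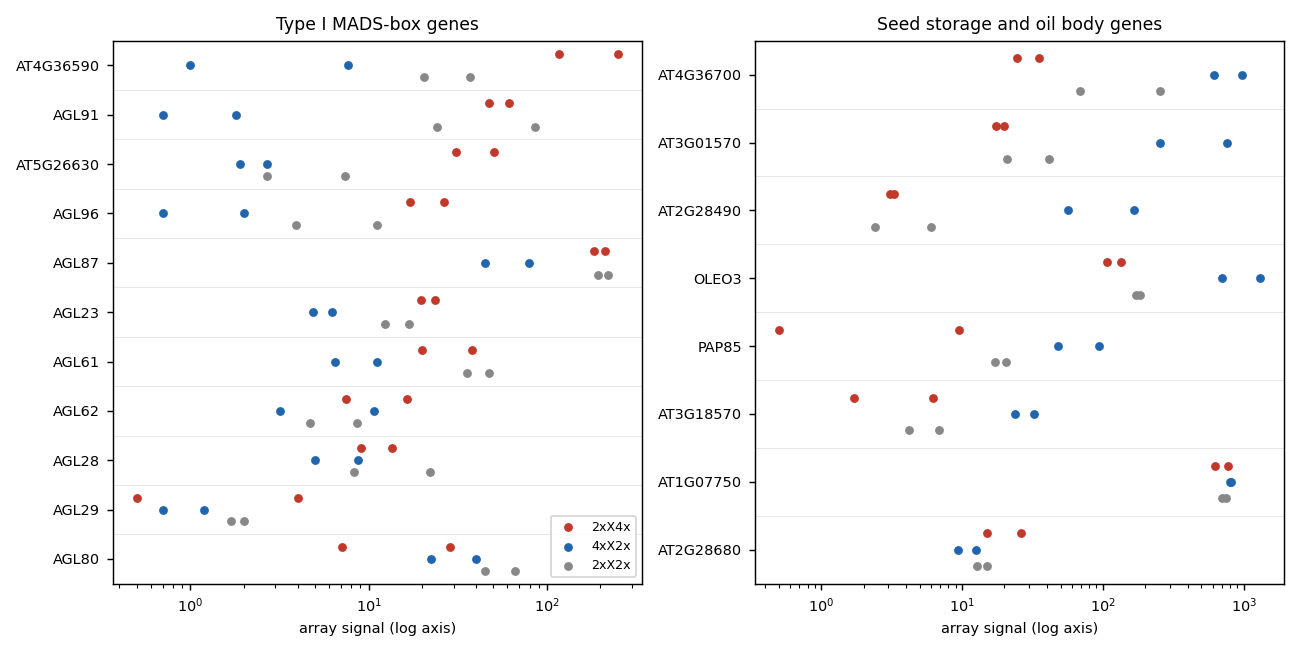
Signal on a log axis, 1 point per array, of the 11 tested type I MADS-box genes (left) and the 8 tested seed storage and oil body genes (right) in 2xX4x (red), 4xX2x (blue) and 2xX2x (grey). In AT4G36590 the red points are at 117 and 251 and the blue points at 1.0 and 7.7, whereas in OLEO3 the blue points are at 703 and 1311 and the red points at 107 and 134.

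Few genes of the remaining lists were called, beside 2.18% of all tested probe sets called higher in 2xX4x and 1.02% called higher in 4xX2x. Of 4 tested imprinted or Polycomb genes, AT3G23060, which the list holds as an imprinted gene, was higher in 2xX4x, at 25.7 and 32.9 against 1.4 and 2.1 in 4xX2x (log2 2.00 ± 0.38, adjusted p = 0.0156, limma), and its call was lost without any 1 of the 4 arrays (0.0558 to 0.178). MPC, a maternally expressed gene, read 28.1 and 32.4 in 2xX4x and 11.6 and 39.5 in 4xX2x, where the replicates of 4xX2x lay on either side of 2xX4x. Neither MEA nor MSI1 of the Polycomb complex had a tested probe set of its own.

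Among hormone genes GH3.3, which conjugates auxin to amino acids, read 452 and 474 in 2xX4x, against 38.4 and 23.4 in 4xX2x (12.5-fold, adjusted p = 0.0104, limma). Its call was lost without any 1 of the 4 arrays (0.0509 to 0.0914). The cytokinin response regulator RR22 read 580 and 610 in 2xX4x, against 97.6 and 309 in 4xX2x, and did not pass (adjusted p = 0.117, limma). AT2G30810 was the called member of 4 tested gibberellin genes, beside 2.18% of all tested probe sets called higher in 2xX4x. None of 3 tested pectin-modifying enzymes passed, and their median difference was -0.07.

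Few genes of cell division could be tested, namely 4 of 26 listed mitotic genes, 5 of 28 core histone genes and 1 of 29 replication genes (PRL). None of them passed, and their differences lay between -0.13 and 0.88 on the log2 scale. The kinase gene AUR1, which acts in mitosis, read 108 and 143 in 2xX4x, against 79.4 and 83.5 in 4xX2x, and the histone gene HTB2 read 101 and 123, against 46.1 and 70.9 (adjusted p = 0.16, limma). IKU1, a gene of endosperm growth, read 82.5 and 77.9 in 2xX4x and 81.0 and 78.9 in 4xX2x, and its difference was 0.00 ± 0.21.

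The balanced cross gave a level to set both crosses against. Among the 348 probe sets higher in 2xX4x, the 2xX2x mean was nearer to 2xX4x in 271 and nearer to 4xX2x in 77, and it lay beyond 2xX4x in 61. Among the 163 higher in 4xX2x it was nearer to 2xX4x in 155, nearer to 4xX2x in 8, and beyond 2xX4x in 50. The median log2 difference of the 348 was 0.68 for 2xX4x over 2xX2x, beside -1.63 for 4xX2x over 2xX2x. For the 163 these medians were -0.2 and 1.8. Both comparisons share the 2xX2x arrays, and the probe sets were chosen from 2xX4x and 4xX2x, so these values describe their position and test nothing.

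In the same fit, 12 of all probe sets were called higher and 1 lower in 2xX4x over 2xX2x (0.0751% and 0.00626%), whereas 134 were called higher and 214 lower in 4xX2x over 2xX2x (0.838% and 1.34%). AT1G23960 stood near 2xX4x in the balanced cross. It read 264 and 227 in 2xX4x and 2.1 and 0.8 in 4xX2x, beside 275 and 218 in 2xX2x. On the 8 arrays of the other crosses it lay between 210 and 330. AT2G43670, a glycosyl hydrolase family 17 gene chosen after its values were seen, stood near 4xX2x instead, at 167 and 176 in 2xX4x and 8.6 and 22.7 in 4xX2x, beside 12.7 and 12.8 in 2xX2x.

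Against all 10 other arrays of fertilised siliques, both 4xX2x arrays were lowest in 161 of the 348 probe sets and highest in 124 of the 163 (4.32% and 5.09% of all tested probe sets). Both 2xX4x arrays were highest in 102 of the 348 and lowest in 13 of the 163 (2.32% and 0.776% of all). The probe sets were selected for a difference between these crosses, which by itself raises such counts, so they are a description only.

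The hexaploid crosses measured the same direction of imbalance on 4 other arrays. These arrays were not in the contrast that chose the probe sets, but they entered the filter and the estimate of the spread in the same fit. Their accessions differ too, since the hexaploid parent was Col-1, so that ploidy and accession cannot be told apart. Of the 348 probe sets higher in 2xX4x, 308 (88.5%) were also higher in 2xX6x than in 6xX2x, and 150 passed the threshold there in that direction. Of the 163 higher in 4xX2x, 129 (79.1%) were also higher in 6xX2x, and 27 passed. Over all tested probe sets the sign was shared by 61.1%, and the hexaploid pair had 459 calls (2.87%), of which 300 (1.88%) were higher in 2xX6x and 159 (0.995%) were higher in 6xX2x. The median difference of the 348 was 2.34 between the tetraploid crosses and 1.53 between the hexaploid crosses, whereas the medians of the 163 were -2.08 and -0.65.

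AT2G19970 read 694 and 591 in 2xX6x, against 1.4 and 4.2 in 6xX2x, which is close to the values of 2xX4x and 4xX2x. AT2G30810 was brighter in 2xX6x than in 2xX4x, at 3828 and 4131, against 20 and 45 in 6xX2x. EXPA21 reached 1218 and 1203 in 2xX6x, against 3.4 and 1.8 in 6xX2x, a difference of 6.93 on the log2 scale beside 4.04 between the tetraploid crosses, but the difference between these values did not pass (adjusted p = 0.0666, limma). Of the storage list, OLEO3 read 41.9 and 98.8 in 2xX6x and 142 and 165 in 6xX2x and did not pass (adjusted p = 0.22, limma). AT2G28490 was between 1.1 and 9.7 on the 4 hexaploid arrays, so the high signals of this gene were those of 4xX2x.

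**Figure D3:**
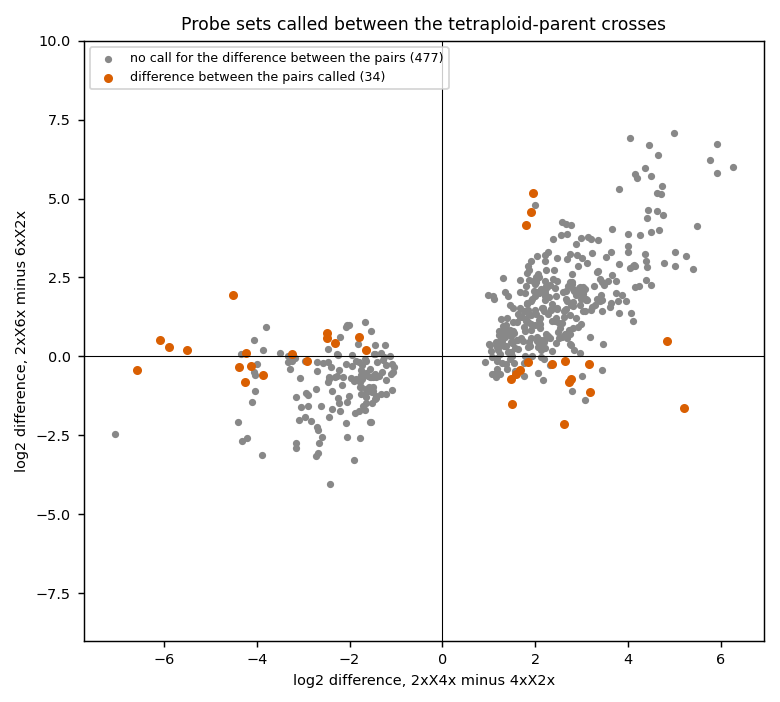
Log2 difference of 2xX6x minus 6xX2x against that of 2xX4x minus 4xX2x, 1 point for each of the 511 called probe sets. The upper right quadrant holds 308 of the 348 probe sets higher in 2xX4x, and 34 orange points mark those whose difference changed between the pairs of crosses.

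Whether the difference was the same with a tetraploid C24 parent and a hexaploid Col-1 parent was tested as an interaction. The interaction cannot tell ploidy from accession, and it includes 6xX2x replicate 1 with its actin ratio of 17.3. It was called for 59 probe sets (0.369%), of which 34 (0.213%) were among the 511, 17 in each direction. This count was 3 when 2xX4x replicate 2 was left out, 8 when either 2xX4x replicate 1 or 4xX2x replicate 1 was, and 22 when 4xX2x replicate 2 was. Leaving out an array of the hexaploid crosses gave 9 or 11 for 2xX6x and 18 or 106 for 6xX2x. AT4G22400 changed sides. It read 46.9 and 49.4 in 2xX4x and 1.6 and 1.7 in 4xX2x, but 58.0 and 65.1 in 2xX6x and 281 and 312 in 6xX2x (interaction log2 4.76 ± 0.34, adjusted p = 0.000274, limma). AT1G09550 also changed sides, since it read 120 and 111 in 2xX6x, against 23.8 and 24.6 in 6xX2x (interaction log2 -6.46 ± 0.54, adjusted p = 0.000731, limma).

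AT1G23960 and scpl42 were low in 4xX2x alone. In 6xX2x they read 233 and 210, and 111 and 186, which was within or near the range of the other crosses. AT3G52550 read 26.6 and 16.9 in 2xX4x, against 235 and 297 in 4xX2x, and was between 25.3 and 34.6 on the hexaploid arrays. AT5G38180 read 956 and 806 in 2xX4x, against 59.3 and 1.2 in 4xX2x, while it read 32.7 and 93.9 in 2xX6x, against 91.6 and 384 in 6xX2x. Its difference of 37.0-fold between the tetraploid crosses was 103-fold when 4xX2x replicate 1 was left out, against 13.3-fold when 4xX2x replicate 2 was, and it was not called without 2xX4x replicate 1 (adjusted p = 0.0576, limma) or 2xX4x replicate 2 (0.0503).

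Some loci annotated as pseudogenes were called higher in 4xX2x. Among 8677 tested protein-coding probe sets with 1 gene, 222 (2.56%) were higher in 2xX4x and 76 (0.876%) were higher in 4xX2x. Among 76 pseudogene probe sets 1 was higher in 2xX4x and 8 (10.5%) were higher in 4xX2x. The filter kept AT3G30396, AT2G12300, AT3G31955, AT2G12240 and AT3G47320 only through their 4xX2x arrays. On every other array these loci were at or below 21.1, under the lowest filter level of 22.2. The share of 10.5% is thus partly set by the filter and is a description only. The median difference of the 76 lay the other way, at 0.34 on the log2 scale, beside 0.03 for the protein-coding probe sets. AT3G30396 read 4.5 and 3.2 in 2xX4x, against 252 and 205 in 4xX2x (log2 -4.39 ± 0.4, adjusted p = 0.000136, limma), and no array of another cross or of msi1 passed 12.5. AT2G12300 read 4.4 and 1.7 in 2xX4x, against 178 and 194 in 4xX2x, and AT3G31955 read 1.9 and 1.2, against 143 and 153. In these genes the high signal was found on both 4xX2x arrays and on no other array of the series.

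The other 5 pseudogenes higher in 4xX2x were AT2G12240, AT2G10640, AT3G47320, AT1G43590 and AT4G22450, with folds from 7.51 to 16.6. AT1G43590 and AT4G22450 were picked for naming after their values were seen. AT1G43590 was not called without 4xX2x replicate 1 (adjusted p = 0.0774, limma). AT3G47320 was not called without that array (0.254), 2xX4x replicate 1 (0.115) or 2xX4x replicate 2 (0.117), and its 9.05-fold difference was 5.95-fold when 4xX2x replicate 1 was left out and 13.8-fold when the other 4xX2x array was. Of the 8 probe sets 6 have a suffix of the array design that marks probes shared with other sequences, so the transcript behind these signals is uncertain. AT5G27900, also picked after its values were seen, was the pseudogene on the 2xX4x side, at 63.9 and 72.9, against 1.5 and 1.6 in 4xX2x.

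**Figure D4:**
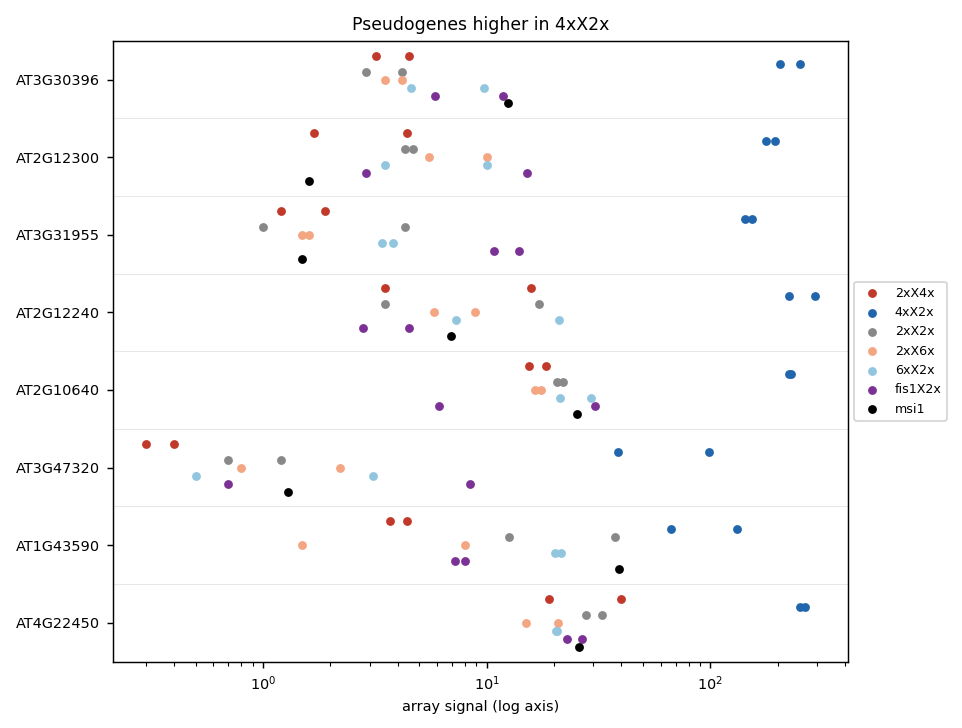
Signal on a log axis of the 8 pseudogene probe sets higher in 4xX2x, with 1 point for each of the 13 arrays coloured by cross. The blue 4xX2x points stand right of every other array in each row, at 205 and 252 for AT3G30396.

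Some neighbouring genes were called together. By the gene order of TAIR10.1, 5 pairs of adjacent genes were called in the same direction, among 2472 adjacent pairs with both genes tested. AT2G43660 and AT2G43670 were 22.5-fold and 8.15-fold higher in 2xX4x, AT2G44240 and AT2G44250 were 10.6-fold and 13.7-fold higher, and AT5G09490 and AT5G09500 were 38.0-fold and 4.62-fold higher. AT4G32230 and AT4G32240 were higher in 2xX4x by 2.08 and 1.52 on the log2 scale, and AT4G23670 and AT4G23680 were the pair higher in 4xX2x. The pairs were picked after their values were seen. Among all tested probe sets 2.18% were called higher in 2xX4x and 1.02% higher in 4xX2x. The count of pairs was not tested against these shares and is a description only. AT5G09500 was not called without 2xX4x replicate 1 (adjusted p = 0.0595, limma), AT4G32230 stayed called only without that array (0.0367, otherwise 0.103 to 0.358), and AT4G32240 stayed called only without 4xX2x replicate 2 (0.03, otherwise 0.068 to 0.0785). Neighbours that resemble each other in sequence can share probe signal, which was not tested.

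One array of 4xX2x departed by chromosome. On 4xX2x replicate 2 the median deviation of the chromosome 2 probe sets, minus that of the remaining chromosomes, was -0.18 in log2 units, and that of chromosome 3 was 0.13. The same values were 0.01 and 0.02 on 4xX2x replicate 1, and between 0.01 and 0.02 on the 2xX4x arrays. Chromosome 2 therefore had a median difference of 0.13 between 2xX4x and 4xX2x, beside -0.01 to 0.04 for the other chromosomes. Of its 1288 tested probe sets with 1 gene, 44 (3.42%) were higher in 2xX4x and 14 (1.09%) were higher in 4xX2x. These shares were 3.01% and 1.35% on chromosome 4 and 2.95% and 1.02% on chromosome 5. They were 2.08% and 0.898% on chromosome 3 and 1.87% and 0.697% on chromosome 1. With each array centred by chromosome, a setting chosen after seeing the data, 504 probe sets were called, of which 496 were among the 511.

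**Figure D5:**
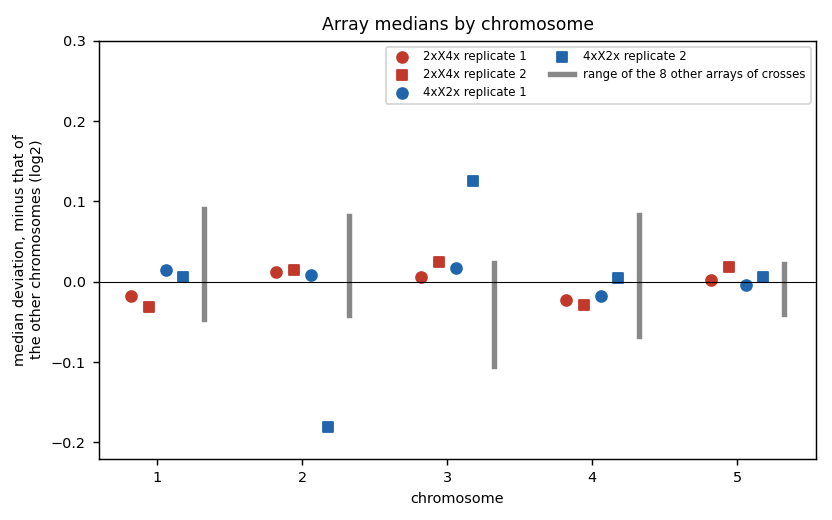
Median log2 deviation of each chromosome's probe sets from their mean over the 12 arrays of crosses, minus that of the other chromosomes, for the arrays of 2xX4x (red) and 4xX2x (blue), with grey bars for the range of the other 8 arrays. The blue square of 4xX2x replicate 2 stands at -0.18 on chromosome 2 and at 0.13 on chromosome 3, outside the grey bars.

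Siliques of mutants in the Polycomb pathway gave a further view of the called genes. In fis1X2x, whose Ler mother also differs in accession, both arrays lay above both 2xX2x arrays in 129 (37.1%) of the 348 probe sets higher in 2xX4x and below both in 111 (31.9%), beside 16.1% and 23.3% of all tested probe sets. For the 163 higher in 4xX2x these counts were 33 (20.2%) and 47 (28.8%). AT3G24510 reached 1729 and 4532 in fis1X2x, against 30.6 and 27.7 in 2xX2x. In unfertilised msi1 siliques, on a single array, 162 of the 348 (46.6%) and 50 of the 163 (30.7%) lay under the 40th percentile of the array, beside 15.6% of all tested probe sets. The lipid transfer protein gene AT5G09370 read 840 there, and AT2G19970 read 2.6.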

How the data were processed

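Labelled RNA of each sample had been hybridised to 1 ATH1 array. The authors deposited MAS5 intensities, not log-transformed, with a 2% trimmed mean of 100 on each array. The table gives no detection calls. Of 22810 probe sets 64 controls were left out, and 63 of the remaining values were 0. By the platform annotation 13513 probe sets match 1 gene, 503 match several and 8730 have none listed, and only those with 1 gene are named. Symbols, gene type and gene order came from TAIR10.1. The build behind the array files is not given in the sources used here, so no coordinates are printed.

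Signals were transformed as log2(signal + 7.4), with the 20th percentile of the signals as offset. A probe set was kept where at least 2 of the 13 arrays had it over their own 40th percentile (15982, with 6764 removed). A linear model with 1 mean per cross was fitted to the 12 arrays of replicated crosses in R 4.3.3 by lmFit and eBayes with a trend, from limma 3.58.1, with 6 residual and 4.92 prior degrees of freedom. Tests were two-sided, with Benjamini-Hochberg adjustment over all kept probe sets of a contrast. The code was first tested on simulated arrays with known changes. Figures were made with Python 3.11.15 and matplotlib 3.10.9.

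The members and the lists were chosen with earlier results of these data known. There were 18 lists from general knowledge and 10 families found by words in gene names, of which the rules for lipid transfer proteins, lipases, glycosyl hydrolases and peroxidases matched no probe set. The lists of maturation regulators and of brassinosteroid and abscisic acid genes had no tested member. Named genes were the 15 largest differences in each direction among called genes, up to 4 of each list by p, and up to 8 by the interaction p. Others are said to be chosen after their values were seen. Alternatives were other offsets, filters, scalings, array weights, variance models, a model of only the arrays compared, a fold threshold, a replicate block and leaving out each array.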

Additional observations from a re-analysis of the deposited data

Results flagged for a closer look

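The difference between 2xX4x and 4xX2x was not the same as that between 2xX6x and 6xX2x in 12 of the genes named, by the interaction of the 2 pairs of crosses (limma, adjusted p from 0.000274 to 0.0462, with the tetraploid pair minus the hexaploid pair on the log2 scale). The interaction was 6.83 for AT5G38180, 4.76 for AT4G22400, 4.35 for AT1G23960, 2.61 for scpl42 and 2.00 for AT2G43535. It was -6.46 for AT1G09550, -4.34 for AT2G12300, -4.04 for AT3G30396, -3.82 for AT3G31955, -3.33 for AT3G52550, -3.28 for AT1G47540 and -2.76 for AT4G22450. AT4G22400 was named only for its interaction p, and AT2G43535 and AT4G22450 were chosen after their values were seen. The other genes were named for their difference between the tetraploid crosses, which is itself part of the interaction. AT2G12300, AT3G30396 and AT3G31955 were also kept by the filter only through their 4xX2x arrays. The count of 12 is thus partly set by the selection and is a description only. The hexaploid parent was of another accession, so ploidy and accession cannot be told apart in these values. The values also include 6xX2x replicate 1, with its actin ratio of 17.3 and GAPDH ratio of 2.06.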

How the results depend on the processing

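With 2 arrays per cross, the calls rested on single arrays. The count of 511 dropped to 194 calls when 2xX4x replicate 2 was left out. It was 208 without the other 2xX4x array. Without 4xX2x replicate 1 it was 249, and without either 2xX2x array it was 533. A cross left with 1 array was assumed to vary like the others. A fold threshold of 1.5 (treat) gave 246 calls. The count of 59 interactions ranged from 3 (without 2xX4x replicate 2) to 106 (without 6xX2x replicate 2), and was 17 without the offset, 30 with a filter at the 60th percentile and 10 with the fold threshold. The share of called probe sets with the same sign in the hexaploid crosses (85.5%) was 81.7% with array weights and between 83.4% and 88.5% when each array was left out. The other alternatives that used all arrays kept these 3 results within 1.5 times the count or within the 95% interval of the share. Deviations of arrays with the same replicate number went together in some pairs of crosses and not in others. Their correlation was above 0.1 in 6 of 15 pairs of crosses (range -0.24 to 0.41). It was 0.34 for 2xX4x with 2xX2x, 0.28 for 2xX4x with 2xX6x and 0.41 for 2xX2x with 2xX6x. For 2xX4x with 4xX2x it was 0.06. The main model had no replicate block. With the replicate block 513 probe sets were called, 472 of them shared, and 55 interactions. Of the 72 called genes picked by the naming rule or afterwards, 10 lost their call without the offset and 16 with the fold threshold, and none reversed under any alternative in which it was tested. The cause of these changes was not tested.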
